A study of Mus musculus with 9 samples.

Results

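The complement genes described here are 33 genes, of 26388 genes listed for at least 1 mouse, chosen by name as components, regulators or receptors of the complement system. They comprised 8 genes of the classical pathway including both C4 genes, 6 of the lectin pathway, 4 of the alternative pathway including C3, 6 of the terminal pathway, 7 regulators and 2 receptors. Each was read in single-cell suspensions of mouse liver captured by Drop-seq, in which each RNA molecule is counted once through a unique molecular identifier (UMI). The livers came from wild-type male C57BL/6 mice aged 8 weeks that had received an intravenous injection of AAVrh.10mCherry (mice 3, 6 and 9), AAVrh.10Null (mice 2, 5 and 8) or PBS (mice 1, 4 and 7), with 3 mice per group and 1 liver per mouse. AAVrh.10 is a serotype of adeno-associated virus used as a gene transfer vector, mCherry is a red fluorescent protein, and PBS is the buffer control; the dose, the content of the Null vector and the time from injection to harvest are stated in none of the sources used here. Mice are separate animals, so the spread between livers of a group includes biological variation.

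Complement is a cascade of plasma proteins, most of them made by hepatocytes, that tags and lyses foreign or damaged cells. The classical pathway starts when C1q binds antibody or other ligands, the lectin pathway when mannose-binding lectins, ficolins or collectins bind sugars, and the alternative pathway through spontaneous activation of C3; all meet at the cleavage of C3 and end in a pore built from the terminal components. Liver macrophages, the Kupffer cells, are known to make C1q and properdin, and adeno-associated virus capsids are known to bind complement proteins.

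Of 48000 barcodes, 44898 carried at least 200 genes and were kept. Mouse 7 (PBS) kept 550 of 3600 barcodes and 291338 UMIs, while the other livers held between 4234127 and 11220147 UMIs. Mouse 6 (AAVrh.10mCherry) and mouse 8 (AAVrh.10Null) had the highest mitochondrial shares, at 17.8% and 17.3% of UMIs, and Malat1, a nuclear transcript, was highest in mice 2, 7 and 8, at 23010, 15944 and 15016 CPM, a liver's UMIs scaled to a common total of 1000000. The mCherry transcript stood at 7979, 6150.04 and 1797 CPM in mice 3, 6 and 9 of the AAVrh.10mCherry group, and at 0 to 24.3 in the other 6 livers. Of the 36 pairs of libraries, 29 shared barcode sequences, 6 at the most. Barcode sequences ending in N numbered 7 of 7200 in mouse 2, 20 of 7200 in mouse 8 and 174 of 3600 in mouse 7. In the other livers they numbered between 1056 of 4000 and 1735 of 6400. Mice 2 and 8 of the AAVrh.10Null group thus differed in this from every AAVrh.10mCherry library. Its part in the differences between treatments was not tested. Levels are in CPM of all UMIs of the liver, or of the class where one is named, and since Drop-seq reads 3′ ends they are not divided by gene length. Where intervals are given they are exact 95% Poisson or binomial intervals and cover counting error only.

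Barcodes were sorted into classes by marker genes, none of them a complement gene. Hepatocyte-positive barcodes, which carried at least 3 hepatocyte markers, made up 42660 (95.02%) of those kept. The smaller classes were 627 endothelial-positive, 292 stellate-positive, 208 macrophage-positive and 195 T/NK-positive barcodes, a class for lymphocytes. Macrophage-positive barcodes numbered 21, 15 and 17 in mice 3, 6 and 9 (AAVrh.10mCherry), 46, 12 and 27 in mice 2, 5 and 8 (AAVrh.10Null), and 21, 47 and 2 in mice 1, 4 and 7 (PBS), so mouse 7, with fewer than 10, was left out wherever macrophage-positive barcodes were compared.

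Hepatocyte transcripts dominated the complement list. C3, the protein at which all 3 activation pathways meet, had the highest level of the list at 1900.2 ± 674 CPM (SD, n = 9 livers). Clu, which encodes the fluid-phase inhibitor clusterin, followed at 988 ± 186, C9, the pore-forming terminal component, at 966 ± 370, and Vtn, which encodes vitronectin, another inhibitor of the pore, at 910.0 ± 153. At the other end, Cfd, which encodes the protease factor D and is known as a fat-cell product, averaged 0.245 CPM. The anaphylatoxin receptor genes C3ar1 and C5ar1 stayed below 2 in every liver other than mouse 7. Mouse 7 (PBS) had no UMI of either, and its depth allowed no level to be read. The spread between livers was smallest for Mbl1 and Vtn, whose highest liver was 1.65 and 1.68 times the lowest, and largest for C6, at 58.1 times.

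**Figure D1:**
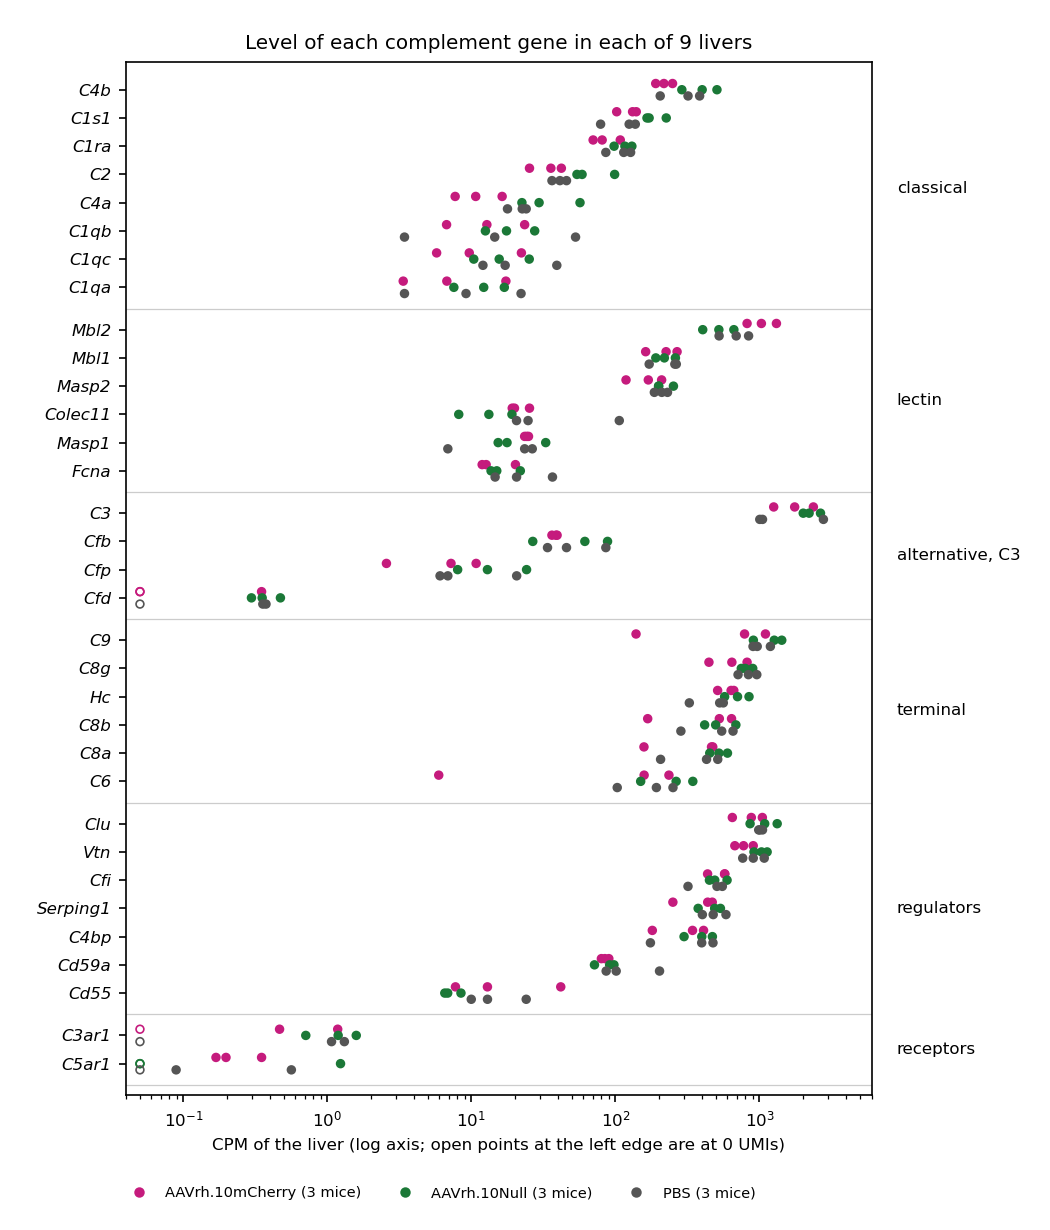
CPM of each complement gene (log axis) in each of 9 livers, 1 point per liver, arranged by pathway arm and, within an arm, by mean level; open points at the left edge are livers with 0 UMIs. C3, Clu, C9 and Vtn lie highest and Cfd, C3ar1 and C5ar1 lowest, and the AAVrh.10mCherry liver far to the left for C6 (5.94) and C9 (139) is mouse 6.

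Among the classical genes, C4b, which encodes the C4 protein cleaved by C1s, led with 217, 191 and 249 CPM in mice 3, 6 and 9 of the AAVrh.10mCherry group, 507, 289 and 400.3 in mice 2, 5 and 8 of the AAVrh.10Null group, and 205, 319 and 384 in mice 1, 4 and 7 of the PBS group. C1s1, which encodes the C1s protease, followed with 139.6, 102 and 132 in AAVrh.10mCherry mice, 225, 171 and 166 in AAVrh.10Null mice, and 125, 137 and 78.9 in PBS mice. For both genes the 3 AAVrh.10Null livers lay above the 3 AAVrh.10mCherry livers, and for C1s1 they also lay above the 3 PBS livers. C1ra, which encodes the C1r protease, ranged between 70.0 and 130.1, and C2, the protease component of the classical C3 convertase, between 25.3 and 98.8. The 3 C1q chain genes were far lower, between 3.36 and 52.9.

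In the lectin arm Mbl2, which encodes mannose-binding lectin C, was highest, with 1032, 1312 and 821 CPM in mice 3, 6 and 9 (AAVrh.10mCherry), 404, 665 and 523 in mice 2, 5 and 8 (AAVrh.10Null), and 525, 841 and 689.9 in mice 1, 4 and 7 (PBS). Mbl1, which encodes mannose-binding lectin A, had 268, 162 and 225 in AAVrh.10mCherry mice, 219, 261 and 191 in AAVrh.10Null mice, and 265, 259 and 172 in PBS mice. The AAVrh.10mCherry and AAVrh.10Null livers did not overlap for Mbl2, while for Mbl1 all 3 groups overlapped. Masp2, the lectin pathway protease that cleaves C4 and C2, ranged between 119 and 253, and Masp1, its activator, between 6.86 and 32.8. Fcna, which encodes ficolin A, ranged between 11.9 and 36.6, and Colec11, which encodes collectin 11, between 8.17 and 106.

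C3 itself had 1256, 2369 and 1757 CPM in mice 3, 6 and 9 (AAVrh.10mCherry), 2655, 2014 and 2213 in mice 2, 5 and 8 (AAVrh.10Null), and 1050.4, 2782 and 1006 in mice 1, 4 and 7 (PBS). Cfb, which encodes factor B, the protease of the alternative convertase, had 36.2, 39.4 and 38.7 in AAVrh.10mCherry mice, 88.2, 26.7 and 61.4 in AAVrh.10Null mice, and 33.8, 45.8 and 85.8 in PBS mice. The PBS livers alone spanned nearly the whole range of C3, with mouse 4 highest of all 9, and the groups overlapped for both genes. Cfp, which encodes properdin, the stabiliser of the alternative convertase, ranged between 2.57 and 24.2.

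Of the terminal genes, C9 had 1101, 139 and 789 CPM in mice 3, 6 and 9 (AAVrh.10mCherry), 1429, 1268 and 908 in mice 2, 5 and 8 (AAVrh.10Null), and 1192, 965.2 and 903 in mice 1, 4 and 7 (PBS). C8g, which encodes the gamma chain of C8, had 821, 446 and 644 in AAVrh.10mCherry mice, 899, 797 and 748 in AAVrh.10Null mice, and 839, 959 and 711 in PBS mice. Mouse 6 was lowest for both, by a wide gap for C9. Hc, which encodes C5, the first component of the terminal pathway, ranged between 326 and 847.

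Of the regulators, Clu had 1048, 649 and 878 CPM in mice 3, 6 and 9 (AAVrh.10mCherry), 1328, 1088 and 861 in mice 2, 5 and 8 (AAVrh.10Null), and 1004, 1050.2 and 989 in mice 1, 4 and 7 (PBS). Vtn had 776, 675 and 906 in AAVrh.10mCherry mice, 917, 1034 and 1131 in AAVrh.10Null mice, and 906, 1080.0 and 765 in PBS mice. The 3 AAVrh.10Null livers lay above the 3 AAVrh.10mCherry livers for Vtn, and the groups overlapped for Clu. Cfi, the protease that inactivates C3b and C4b, averaged 499.9 ± 88.2, Serping1, which encodes the C1 inhibitor, 447 ± 97.6, and C4bp, the C4b-binding cofactor of Cfi, 350.0 ± 112 (SD, n = 9). The membrane regulators were lower: Cd59a, which blocks the pore on the cell's own surface, ranged between 71.6 and 203, and Cd55, which speeds the decay of convertases, between 6.54 and 41.7.

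The receptors were near the limit of detection. C3ar1, the C3a receptor gene, had 1.18, 0 and 0.466 CPM in mice 3, 6 and 9 (AAVrh.10mCherry), 1.59, 0.709 and 1.19 in mice 2, 5 and 8 (AAVrh.10Null), and 1.07, 1.31 and 0 in mice 1, 4 and 7 (PBS). C5ar1, the C5a receptor gene, had 0.169, 0.198 and 0.349 in AAVrh.10mCherry mice, 1.23, 0 and 0 in AAVrh.10Null mice, and 0.0891, 0.563 and 0 in PBS mice. A floor of 3 UMIs, which is not an exact Poisson limit, is 0.594 CPM in mouse 6 and 10.3 in mouse 7. For mouse 7, with a count of 0 for both genes, no receptor level could be read at this depth. Together with Cfd, these were the 3 genes that did not pass the filter on low counts; the other 30 entered the tests between treatments.

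Whether a transcript came from hepatocytes or from another cell type was asked by comparing the summed UMIs of a class with those of the hepatocyte-positive barcodes of the same livers, in an edgeR quasi-likelihood fit over all genes with the mouse as a block. Hepatocyte transcripts were present in the other classes too: pooled over the livers, Alb, the albumin gene, stood at 20592 CPM in macrophage-positive barcodes and at 39832 in hepatocyte-positive barcodes. For this reason 2 scalings were set side by side, the trimmed mean (TMM) and a scaling to the summed hepatocyte markers, which asks for transcripts in excess of hepatocyte RNA and was chosen after seeing the data. The second scaling moved the median of all genes, in macrophage-positive over hepatocyte-positive barcodes, to 1.30 on the log2 scale, against -0.70 with TMM, so 0 at this scaling marks the level of hepatocyte RNA and not the middle of all genes.

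In macrophage-positive barcodes 7 of 32 tested complement genes were higher at an adjusted p under 0.05 (10.4% of all 10323 genes tested) and 20 were lower (29.2% of all genes). The 7 were C1qa, C1qb, C1qc, Fcna, Cfp, C3ar1 and C5ar1. Scaled to total UMIs without TMM, 9 were higher and 14 lower; over all genes the split was 2247 higher and 541 lower with total UMIs, and 1070 higher and 3010 lower with TMM. Relative to the hepatocyte markers 11 of 32 were higher, against 43.4% of all genes, and 0 were lower, against 0.242%; at the same scaling 25 genes in all were lower. The 4 added were C2, C4b, C6 and Cd55, of which C2 and C4b lay below the median of all genes at that scaling.

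The C1q genes, which encode the 3 chains of the recognition molecule of the classical pathway, were the clearest of these. C1qb averaged 2249 ± 835 CPM in macrophage-positive barcodes and 7.48 ± 3.89 in hepatocyte-positive barcodes (SD, n = 8 livers), C1qc 2067 ± 514 and 5.80 ± 3.25, and C1qa 1433 ± 566 and 4.11 ± 1.63. All 3 were higher in the macrophage-positive barcodes of 8 of 8 livers. The log2 differences with TMM were 7.09 for C1qb (SE 0.186), 7.32 for C1qc (SE 0.191) and 7.27 for C1qa (SE 0.210), the last with an adjusted p of 1.83e-258 in edgeR. Macrophage-positive barcodes held 60.6% of all C1qb UMIs, 63.3% of C1qc and 64.1% of C1qa. In T/NK-positive barcodes, a class not known to make C1q, C1qa and C1qb had 0 of 252636 UMIs, and C1qc had 1 UMI. A floor of 3 UMIs in this class, pooled over the livers, is 11.9 CPM. This floor is not an exact Poisson limit. Pooled over the livers, the C1q genes stood at 4.04 to 7.25 CPM in hepatocyte-positive barcodes, below that floor. C1qb was above the floor in endothelial-positive barcodes at 19.6 and in unassigned barcodes at 24.8. In the hepatocyte-positive barcodes of mouse 4 alone C1qb was at 12.9, a value of 1 liver that the pooled floor cannot judge. How much of the C1q outside the macrophage class was free RNA was not tested.

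Properdin and ficolin A transcripts were also higher in macrophage-positive barcodes, which held a smaller share of their UMIs than of the C1q UMIs. Of all Cfp UMIs, 50.1% lay in macrophage-positive and 44.0% in hepatocyte-positive barcodes. Cfp averaged 1071 ± 420 CPM in macrophage-positive barcodes and 5.26 in hepatocyte-positive barcodes, with a log2 difference of 6.53 (SE 0.221, edgeR adjusted p = 7.84e-188). Fcna averaged 1278 ± 531 and 6.81, with a log2 difference of 6.35 (SE 0.205, edgeR adjusted p = 4.31e-207). Fcna had a second source in stellate-positive barcodes, where it stood at 409, 662 and 449 CPM in mice 3, 6 and 9 (AAVrh.10mCherry), 306, 671 and 492.7 in mice 2, 5 and 8 (AAVrh.10Null), and 473 and 537 in mice 1 and 4 (PBS). Of all Fcna UMIs, 39.1% lay in macrophage-positive, 18.1% in stellate-positive and 36.0% in hepatocyte-positive barcodes. The receptor genes rested on few UMIs, 31 for C3ar1 and 11 for C5ar1 in the macrophage class, which were 62.0% and 68.8% of all their UMIs.

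C6, the terminal component that follows C5b, was the one pore component with an excess over hepatocyte RNA in macrophage-positive barcodes. Its level there was 515, 235 and 335 CPM in mice 3, 6 and 9 (AAVrh.10mCherry), 317, 469 and 547 in mice 2, 5 and 8 (AAVrh.10Null), and 538 and 624 in mice 1 and 4 (PBS). In hepatocyte-positive barcodes it was 237, 5.32 and 161 in AAVrh.10mCherry mice, 269, 346 and 150.2 in AAVrh.10Null mice, and 252 and 189.7 in mice 1 and 4. The macrophage value was above the hepatocyte value in 8 of 8 livers, although it rested on between 3 and 38 UMIs a liver. The call turned on the scaling: the log2 difference was 2.11 relative to the hepatocyte markers (SE 0.215, edgeR adjusted p = 2.88e-21), 1.22 with total UMIs and 0.07 with TMM (SE 0.197, adjusted p = 0.798). C2 and C4b also changed direction with the scaling, at 1.23 (adjusted p = 0.0226) and 0.70 (adjusted p = 0.00850) relative to the hepatocyte markers and at -0.80 (adjusted p = 0.0824) and -1.32 with TMM. C3, C9, Clu, Vtn and the C8 genes lay within 0.3 of 0 relative to the hepatocyte markers, as Alb did at -0.13. Alb is itself among the markers that set this scaling, so its closeness to 0 is partly built in and is no independent reference.

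Colec11 was the stellate gene of the list. It stood at 876, 1485 and 1153 CPM in the stellate-positive barcodes of mice 3, 6 and 9 (AAVrh.10mCherry), 639, 2012 and 1232 in mice 2, 5 and 8 (AAVrh.10Null), and 1325 and 1505 in mice 1 and 4 (PBS), against 9.32 ± 2.18 in hepatocyte-positive barcodes. Every stellate value lay above every hepatocyte value, and the log2 difference with TMM was 6.29 (SE 0.180, edgeR adjusted p = 2.34e-260). Stellate-positive barcodes held 43.4% of all Colec11 UMIs and hepatocyte-positive barcodes 45.7%. In all, 4 of 30 tested complement genes were higher in stellate-positive barcodes with TMM (7.32% of all genes) and 18 were lower (16.8%), against 6 and 7 with total UMIs, where 1120 of all 10316 genes were higher and 168 lower; relative to the hepatocyte markers 7 were higher (15.5%) and 1 was lower (0.242%). Besides Colec11 and Fcna these included Masp1, at 1.96 (SE 0.386), C1ra at 0.95, Serping1 at 0.75 and Cd55 at 3.27, the last on 11 UMIs. Left without mouse 4, the TMM differences of Masp1 and Cd55 were 0.61 and 0.62 and did not pass.

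Cd55 alone in the list had more of its UMIs in endothelial-positive barcodes than in any other class. It ranged between 294 and 1265 CPM in endothelial-positive barcodes and between 1.84 and 8.08 in hepatocyte-positive barcodes, higher in 9 of 9 livers, with a log2 difference of 6.33 with TMM (SE 0.196). Endothelial-positive barcodes held 58.3% of all Cd55 UMIs. In the 74 B-positive barcodes, a class for B lymphocytes, Cd55 stood at 242 CPM pooled, with 2.81% of its UMIs, and no test was made there. Cd59a, the other membrane regulator, was also higher there in 9 of 9 livers, by 1.02 on the log2 scale with TMM, although the class held only 4.17% of its UMIs. With TMM 4 of 24 tested complement genes were higher in endothelial-positive barcodes (22.6% of all genes) and 20 were lower (38.5%). Besides Cd55 and Cd59a, the higher genes were Colec11 and Fcna. With 1 mouse left out, their log2 differences ran from 1.69 to 2.28 and, where tested, from 1.14 to 1.54. The class held 3.93% and 1.82% of their UMIs. Relative to the hepatocyte markers 4 were higher (71.5%) and 2 lower (1.14%). In T/NK-positive barcodes 0 of 30 were higher (8.92%) and 24 were lower (28.6%) with TMM, 0 and 20 with DESeq2, and 0 and 0 relative to the hepatocyte markers, where 36.5% of all genes were higher and 0.126% lower. Hepatocyte-positive barcodes held 91.8% of the Cd59a UMIs and, for the genes of the list not named above as macrophage, stellate or endothelial and Cfd aside with 15 UMIs in all, between 94.0% and 96.2%, against 95.7% for Alb. The class made up 95.02% of all barcodes kept, so a share of this size does not by itself mark a hepatocyte source. Clu also stood at 14218 CPM in the 25 cholangiocyte-positive barcodes pooled, where no test was made.

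**Figure D2:**
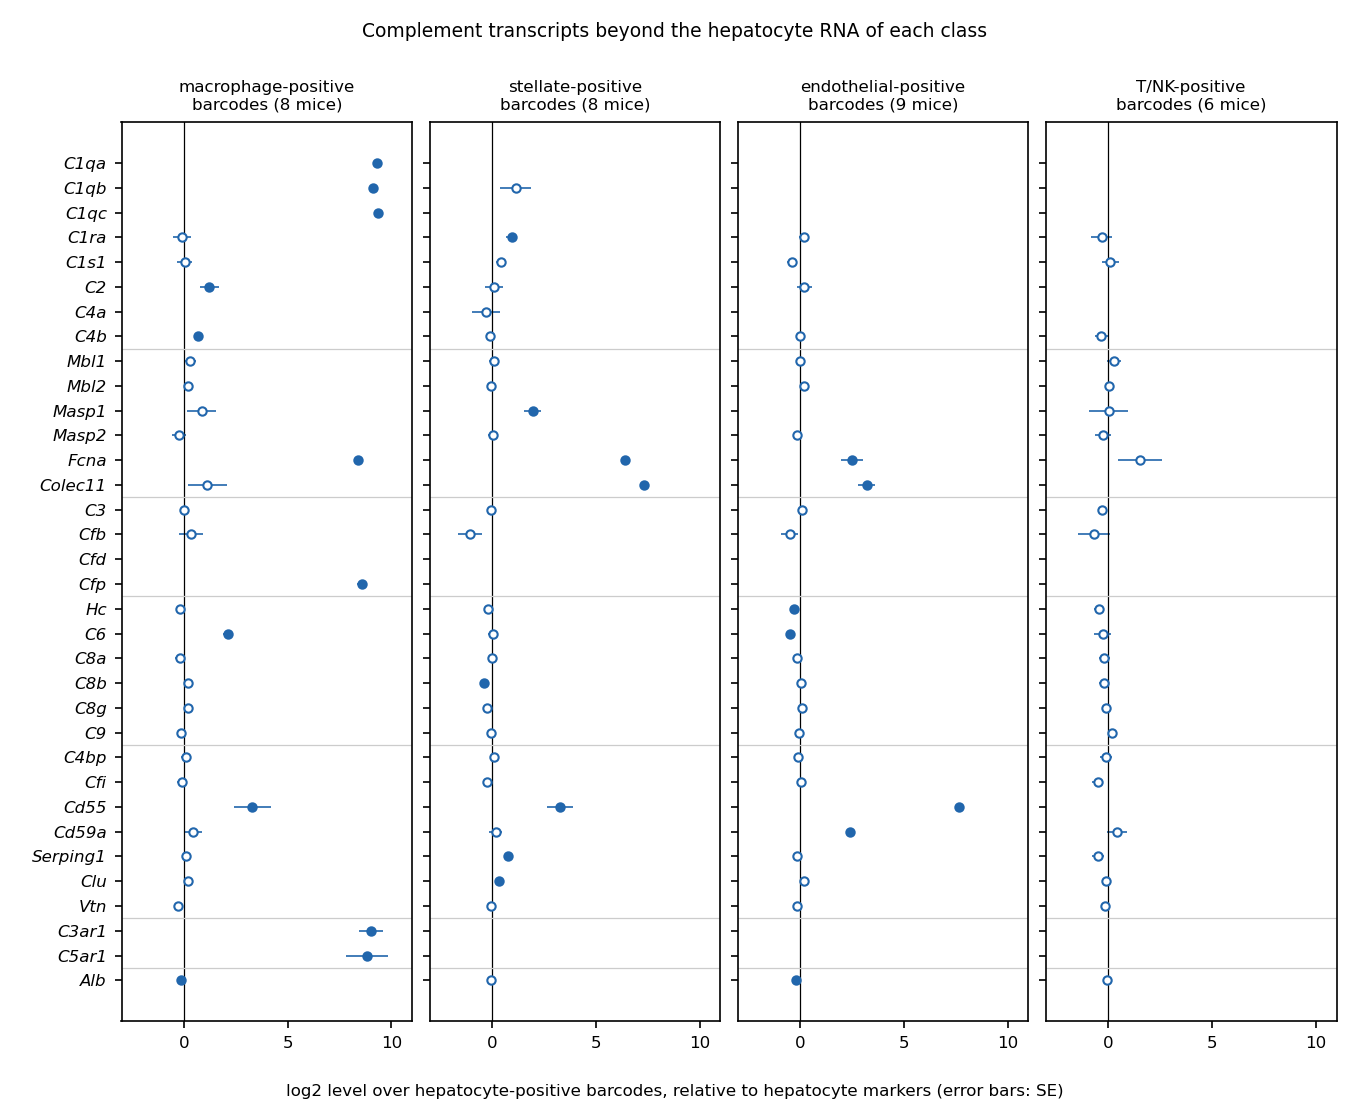
Log2 level of each complement gene in macrophage-, stellate-, endothelial- and T/NK-positive barcodes over hepatocyte-positive barcodes of the same livers, relative to hepatocyte markers; bars are SEs, filled points passed an adjusted p under 0.05 in edgeR, and genes with fewer than 3 UMIs in a class are not drawn. C1qa, C1qb, C1qc, Cfp, Fcna, C3ar1 and C5ar1 stand at 8 to 10 in macrophage-positive barcodes. Colec11 and Fcna stand at 7.31 and 6.43 in stellate-positive barcodes and Cd55 at 7.67 in endothelial-positive barcodes. C3, C9, Clu and Vtn lie close to the line with Alb, which is itself among the markers that set the scaling.

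Windows around the start sites are shown for a few genes with these different sources, picked as examples. C1qb, C1qc and Fcna were found in macrophage-positive barcodes, and C8a and C8b, a neighbouring pair on chromosome 4, in hepatocyte-positive barcodes. RefSeq (GRCm38.p6) held 26 such windows of 250 bases before to 50 bases after the start for 24 of the 33 genes. Capitals mark GAGGAA, the core bound by the myeloid factor PU.1, in the first 3 and GTTAAT, a half-site of the hepatocyte factor HNF1, in the last 2, each searched on both strands with no overlap between them.
C1qb, chr4:136886151-136886450, minus strand: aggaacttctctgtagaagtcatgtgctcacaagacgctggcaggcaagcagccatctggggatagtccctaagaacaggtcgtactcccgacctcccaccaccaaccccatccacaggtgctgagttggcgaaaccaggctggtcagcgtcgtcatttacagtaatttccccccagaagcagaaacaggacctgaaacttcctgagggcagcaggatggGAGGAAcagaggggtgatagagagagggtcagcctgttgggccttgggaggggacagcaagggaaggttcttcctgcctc
C1qc, chr4:136892865-136893164, minus strand: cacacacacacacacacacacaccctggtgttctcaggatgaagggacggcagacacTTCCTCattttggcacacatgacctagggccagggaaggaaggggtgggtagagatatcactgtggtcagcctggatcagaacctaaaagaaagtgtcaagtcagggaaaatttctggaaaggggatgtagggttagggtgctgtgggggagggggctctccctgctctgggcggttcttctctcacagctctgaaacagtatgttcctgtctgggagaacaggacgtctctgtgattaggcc
Fcna, chr2:25627925-25628224, minus strand: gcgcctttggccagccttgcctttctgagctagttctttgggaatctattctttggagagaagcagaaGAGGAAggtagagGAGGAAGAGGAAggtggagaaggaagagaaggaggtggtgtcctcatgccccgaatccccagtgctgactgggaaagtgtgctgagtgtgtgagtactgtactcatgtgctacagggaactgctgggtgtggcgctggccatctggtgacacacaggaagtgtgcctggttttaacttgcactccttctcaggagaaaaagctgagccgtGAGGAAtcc
C8a, chr4:104876349-104876648, minus strand: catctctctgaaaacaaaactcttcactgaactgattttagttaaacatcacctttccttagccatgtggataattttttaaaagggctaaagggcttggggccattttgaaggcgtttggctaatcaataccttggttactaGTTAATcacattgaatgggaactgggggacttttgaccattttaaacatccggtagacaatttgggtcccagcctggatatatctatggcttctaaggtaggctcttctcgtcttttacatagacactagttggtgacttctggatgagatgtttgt
C8b, chr4:104766067-104766366, plus strand: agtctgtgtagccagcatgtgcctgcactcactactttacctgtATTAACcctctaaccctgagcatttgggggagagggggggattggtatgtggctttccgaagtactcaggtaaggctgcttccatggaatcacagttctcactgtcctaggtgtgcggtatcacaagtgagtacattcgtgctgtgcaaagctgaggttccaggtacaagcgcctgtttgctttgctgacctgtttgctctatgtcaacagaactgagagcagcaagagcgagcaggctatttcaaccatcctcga

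GAGGAA or its reverse was found in 6 of the 26 windows, those of C1qb, C1qc, C1ra, Cd59a, Cfp and Fcna, and in 28.3% of all 32851 windows. Fcna held it 4 times. GTTAAT or its reverse was found in 8 of the 26 windows, those of C1ra, C4bp, C8a, C8b, Cd55, Cfp, Hc and Vtn, and in 7.10% of all windows. TATAAA or its reverse was found in 4 of the 26 windows and in 13.6% of all. Each window shown holds the letters marked in it, and other genes did not all follow their source. C3ar1, also higher in macrophage-positive barcodes, had a window without GAGGAA. Cfp and C1ra had both GAGGAA and GTTAAT. The windows shown therefore give no measure of a split by source. These are letter matches only and do not mark bound sites.

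Because so much C1q came from macrophage-positive barcodes, its level in whole livers is set beside the macrophage content of each liver. The summed C1qa, C1qb and C1qc level was 63.1, 15.8 and 29.2 CPM in mice 3, 6 and 9 (AAVrh.10mCherry), 69.7, 30.5 and 45.3 in mice 2, 5 and 8 (AAVrh.10Null), and 35.7, 114 and 24.03 in mice 1, 4 and 7 (PBS). The summed macrophage markers were at 193, 105 and 116 in AAVrh.10mCherry mice, 182, 133 and 128 in AAVrh.10Null mice, and 109, 269 and 65.2 in PBS mice. Mouse 4 was highest and mice 6 and 7 were lowest for both sums, and the groups overlapped. C1q UMIs per macrophage marker UMI varied less, at 0.327, 0.150 and 0.253 in AAVrh.10mCherry mice, 0.383, 0.230 and 0.354 in AAVrh.10Null mice, and 0.328, 0.425 and 0.368 in PBS mice. The values of mouse 7 rested on only 7 C1q UMIs and 19 marker UMIs. In summed tissue counts, fewer macrophages and less C1q RNA per macrophage cannot be told apart. Within macrophage-positive barcodes the C1q sum was 6491, 2426 and 5406 in AAVrh.10mCherry mice, 5822, 5863 and 8338 in AAVrh.10Null mice, and 4499 and 7147 in mice 1 and 4 of the PBS group, with mouse 6 lowest of the 8.

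**Figure D3:**
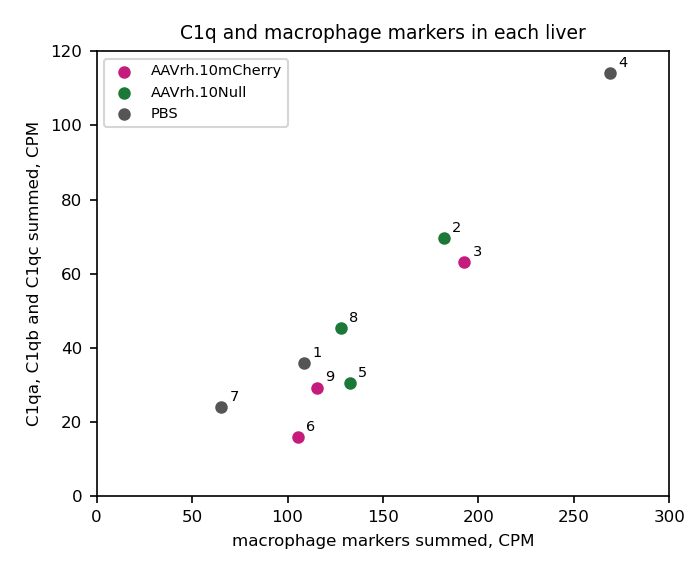
Summed C1qa, C1qb and C1qc level of each liver (vertical axis, CPM) against the summed level of 12 macrophage markers (horizontal axis, CPM), 1 point per liver with its mouse number. Mouse 4 (PBS) stands at 114 and 269, mouse 6 (AAVrh.10mCherry) at 15.8 and 105, and the 3 groups overlap on both axes. The point of mouse 7 (PBS) rests on only 7 C1q UMIs and 19 marker UMIs.

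Mouse 6 stood apart from the other 8 livers, and the genes described for it were chosen after its values were seen. It was the lowest liver for 17 of the 33 complement genes and the highest for 2, Mbl2 and Cd55. The same count was not made over all genes, so it is not known whether this share is particular to complement. C6 was at 5.94 CPM in mouse 6 (95% interval 4.005 to 8.47), against 235 and 158 in mice 3 and 9 of its own AAVrh.10mCherry group, 264, 345 and 149.8 in AAVrh.10Null mice, and 251.1, 193 and 103 in PBS mice. That is 5.76% of the lowest other liver. C9 in mouse 6 was 17.6% of the lowest other liver, C8b, which encodes the beta chain of C8, 58.8%, C8g 69.3% and C8a, its alpha chain, 76.7%. Hc did not follow, with mouse 6 at 513 and mouse 7 lowest.

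**Figure D4:**
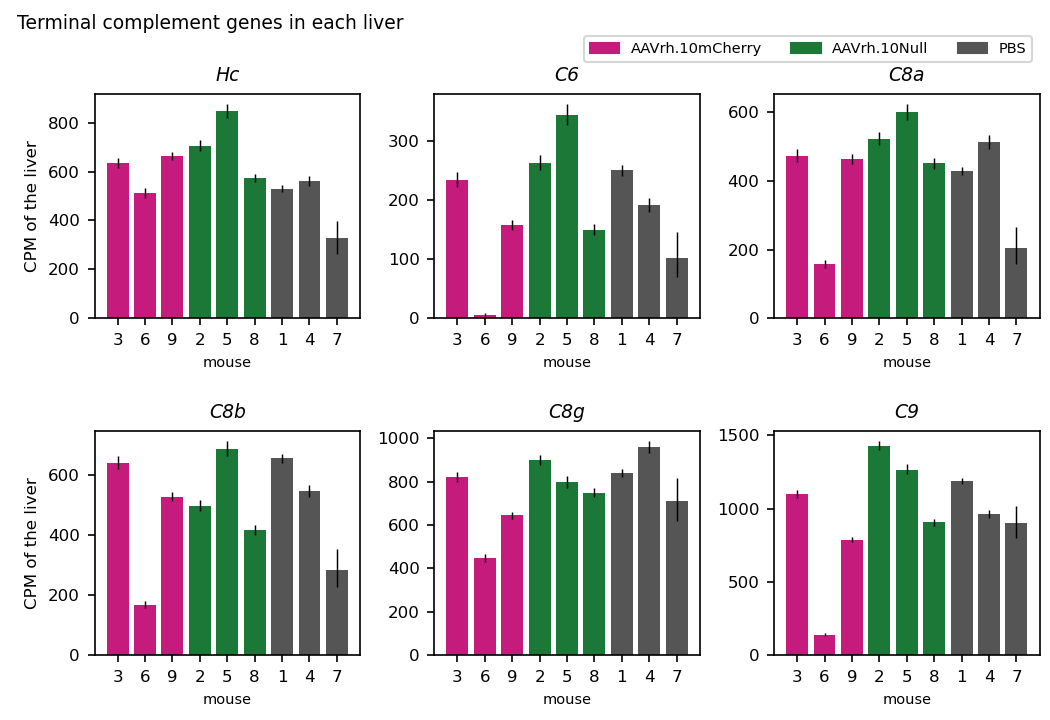
CPM of the 6 terminal pathway genes in each liver (bars start at 0; error bars are exact 95% Poisson intervals of counting error), grouped as AAVrh.10mCherry, AAVrh.10Null and PBS. C6 and C9 are at 5.94 and 139 in mouse 6, against at least 103 and 789 in the other livers, while Hc in mouse 6 (513) lies within their range of 326 to 847.

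Other transcripts moved with mouse 6. Genes that adult male mouse livers are known to express above female livers were low in it, with Cyp4a12a at 2.57 CPM against 78.7 to 257 in the other livers, Hsd3b5 at 2.97 against 103 to 339.9, and Serpina1e at 276 against 7455 to 18133. A gene known for higher expression in female livers was high in it, with Cyp2b9 at 244 against 0 to 3.43. The Y-linked gene Ddx3y was at 101, within the range of 59.7 to 126 of the others, and Xist, the X-inactivation transcript of female cells, was at 1.58 against 0 to 0.353, so mouse 6 carried Y-linked transcripts at the level of its labelled sex. Mouse 6 also had the highest mitochondrial share. The part of any of these in its complement levels was not tested.

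Between treatments, the spread between livers was large beside the differences, and with low counts filtered out no complement gene passed an adjusted p under 0.05 in edgeR in any of the 3 contrasts. The fits used all 9 livers, tested 11321 genes, and shared the PBS livers between both vector contrasts and each vector group between 2 contrasts. In AAVrh.10mCherry over AAVrh.10Null livers, 0 of 30 tested complement genes passed (0.0265% of all genes), 0 with DESeq2, and 7 had an unadjusted p under 0.05 (7.3% of all genes). In AAVrh.10mCherry over PBS livers, 0 of 30 passed (0% of all genes), 0 with DESeq2, and 3 had an unadjusted p under 0.05 (6.57%). In AAVrh.10Null over PBS livers, 0 of 30 passed (0.00883%), 0 with DESeq2, and 3 had an unadjusted p under 0.05 (12.9%). The calls turned on the filter: with all 26282 genes fitted, edgeR called C4a (-1.71, adjusted p = 2.47e-06), C2 (-1.12, adjusted p = 0.0159), Cfp (-1.19) and Cd55 (1.35) in the first contrast, C1qb (-1.10) in the second and Colec11 (-1.44, adjusted p = 0.00135) in the third, among 151, 102 and 306 genes in all.

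C4a, C2 and C4b had the smallest p-values of the list in AAVrh.10mCherry over AAVrh.10Null livers, and all 3 were lower in each AAVrh.10mCherry liver than in each AAVrh.10Null liver. C4a was at 16.4, 7.72 and 10.7 CPM in mice 3, 6 and 9 (AAVrh.10mCherry), 56.8, 29.5 and 22.4 in mice 2, 5 and 8 (AAVrh.10Null), and 22.5, 17.8 and 24.03 in mice 1, 4 and 7 (PBS). The AAVrh.10mCherry livers lay below both other groups without overlap. From PBS the gap was narrow, with 17.8 in mouse 4 against 16.4 in mouse 3, and the value of mouse 7 rested on 7 UMIs. The log2 difference from AAVrh.10Null was -1.71 (SE 0.341, edgeR adjusted p = 0.572), and from PBS -0.97 (SE 0.361, adjusted p = 0.717); without mouse 6 the difference from AAVrh.10Null was -1.48. C4a, in mice the gene for the sex-limited protein, is a near copy of C4b: the last 300 bases of their transcripts are 98% identical, so reads could have been split between them. C4a made up 7.004%, 3.89% and 4.12% of the summed C4 UMIs in mice 3, 6 and 9 (AAVrh.10mCherry), 10.1%, 9.26% and 5.31% in mice 2, 5 and 8 (AAVrh.10Null), and 9.92%, 5.28% and 5.88% in mice 1, 4 and 7 (PBS), and all 3 groups overlapped.

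C4b averaged 219 ± 29.4 CPM in AAVrh.10mCherry livers and 399 ± 109 in AAVrh.10Null livers (SD, n = 3 each), a log2 difference of -0.96 (SE 0.273, edgeR adjusted p = 0.578). C2 was at 42.1, 25.3 and 35.6 in mice 3, 6 and 9 (AAVrh.10mCherry), 98.8, 54.1 and 58.7 in mice 2, 5 and 8 (AAVrh.10Null), and 36.3, 45.8 and 41.2 in mice 1, 4 and 7 (PBS). Here the AAVrh.10Null livers stood above both other groups. The difference of AAVrh.10mCherry from AAVrh.10Null was -1.12 (SE 0.260, adjusted p = 0.578) and that of AAVrh.10Null from PBS 0.74 (SE 0.273, adjusted p = 0.297). C2 and Cfb lie side by side on chromosome 17 and both share exons with the read-through gene Gm20547 on the same strand, so their counts may hold its reads; C2, C1s1, Masp2, Fcna, Hc and Cd55 overlap a gene on the other strand, and the strand setting of the counting is stated in none of the sources used here. Mouse 2 (AAVrh.10Null), highest for C4a, C4b, C2 and C1s1, was also the highest liver for Saa1, an acute-phase gene, at 407 CPM against 13.5 to 209.9 in the others, and for Malat1; whether these move with the C4 and C2 levels for a shared reason was not tested. Mice 2, 7 and 8 were the livers highest for Malat1 and those with the fewest barcodes ending in N. Without them, the log2 differences of AAVrh.10mCherry from AAVrh.10Null were -1.49 for C4a, -0.80 for C2 and -0.56 for C4b, with 1 AAVrh.10Null liver left.

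C1s1 averaged 188 ± 32.9 CPM in AAVrh.10Null livers and 114 ± 30.8 in PBS livers, a log2 difference of 0.64 (SE 0.256, edgeR adjusted p = 0.322). Over the whole classical arm, 8 of 8 genes were below 0 in AAVrh.10mCherry over AAVrh.10Null livers and over PBS livers, with medians of -0.60 and -0.65 on the log2 scale, although C1s1, at -0.04 over PBS in the fit, averaged 124 ± 19.8 CPM in AAVrh.10mCherry livers and 114 ± 30.8 in PBS livers; the median of all genes was 0.00 and 0.02 and the share below 0 was 50% and 48.2%. Without mouse 6 the medians were -0.46 and -0.40, with 8 and 7 of 8 genes below 0 and still 0 called. In AAVrh.10Null over PBS livers 3 of 8 were below 0, with a median of 0.20.

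In the lectin arm, Colec11 was at 19.2, 25.3 and 19.9 CPM in mice 3, 6 and 9 (AAVrh.10mCherry), 13.2, 19.1 and 8.17 in mice 2, 5 and 8 (AAVrh.10Null), and 20.6, 24.8 and 106 in mice 1, 4 and 7 (PBS). The AAVrh.10Null livers lay below both other groups, and mouse 7 was far above all. AAVrh.10Null differed from PBS by -1.46 (SE 0.503, edgeR adjusted p = 0.266); without mouse 7 the difference was -0.80. The stellate markers, the class in which Colec11 was found, were also highest in mouse 7, at 632 CPM against 78.0 to 277 in the other livers. Fcna was at 20.2, 12.7 and 11.9 in AAVrh.10mCherry mice, 21.9, 13.7 and 15.01 in AAVrh.10Null mice, and 14.6, 36.6 and 20.6 in PBS mice. Its difference between AAVrh.10mCherry and PBS livers was -0.85 (SE 0.352, adjusted p = 0.717), with groups that overlap; mouse 4, highest for the macrophage markers, was also highest for Fcna, and without it the difference was -0.23. Mbl2 was the one gene of the arm with a higher level in the AAVrh.10mCherry livers than in every AAVrh.10Null liver and an unadjusted p under 0.05, at 1055 ± 247 and 530.5 ± 130 CPM (log2 difference 0.87, SE 0.289, adjusted p = 0.603). The arm's medians were -0.05 in AAVrh.10mCherry over AAVrh.10Null, -0.34 in AAVrh.10mCherry over PBS and -0.24 in AAVrh.10Null over PBS livers.

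The 3 tested genes of the alternative arm had medians of -0.72, -0.47 and 0.25 in the same 3 contrasts, and C3 differed by -0.47 (SE 0.378), 0.01 (SE 0.377) and 0.48 (SE 0.378), each with an edgeR adjusted p of 0.594 or more. The terminal arm had medians of -0.53, -0.40 and 0.30. Without mouse 6 the first 2 of these were -0.24 and 0.03, and the difference from PBS had lost its direction. For C6 the difference of AAVrh.10mCherry from PBS was -0.60 (SE 0.792) with mouse 6 and -0.04 (SE 0.402) without it, and for C9 -0.70 (SE 0.526) and -0.21 (SE 0.288).

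Among the regulators the medians were -0.37, -0.36 and 0.08. Cd59a was at 90.0, 79.9 and 84.6 CPM in mice 3, 6 and 9 (AAVrh.10mCherry), 97.7, 71.6 and 91.2 in mice 2, 5 and 8 (AAVrh.10Null), and 86.3, 101 and 203 in mice 1, 4 and 7 (PBS). Mouse 7 stood far above the other livers, and AAVrh.10mCherry differed from PBS by -0.65 (SE 0.286, edgeR adjusted p = 0.717) with mouse 7 and by -0.30 without it. Cd55 was at 7.76, 41.7 and 12.9 in AAVrh.10mCherry mice, 8.47, 6.85 and 6.54 in AAVrh.10Null mice, and 9.98, 12.9 and 24.03 in PBS mice. The endothelial markers, the class that held most of Cd55, were highest in the same 2 livers as Cd55, at 504 in mouse 6 and 484 in mouse 7 against 89.04 to 291 in the others, and its log2 difference of AAVrh.10mCherry from AAVrh.10Null was 1.37 with mouse 6 and 0.43 without it.

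Livers of 2 groups did not overlap for a minority of the list. In AAVrh.10mCherry over AAVrh.10Null livers 2 of 30 genes were higher without overlap (12% of all genes) and 5 were lower (4.55%), namely C1s1, C2, C4a, C4b and Vtn. In AAVrh.10mCherry over PBS livers 0 were higher (14.4%) and 1 was lower (2.37%), C4a. In AAVrh.10Null over PBS livers 3 were higher (12.3%), C1s1, C2 and Hc, and 2 were lower (6.87%), Colec11 and Cd55. Over all 30 genes, 26, 25 and 12 were below 0 in these contrasts, against 50%, 48.2% and 51.2% of all genes, and the medians were -0.48, -0.46 and 0.07; without mouse 6 the first 2 medians were both -0.22, and without mouse 7 the last was -0.10.

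**Figure D5:**
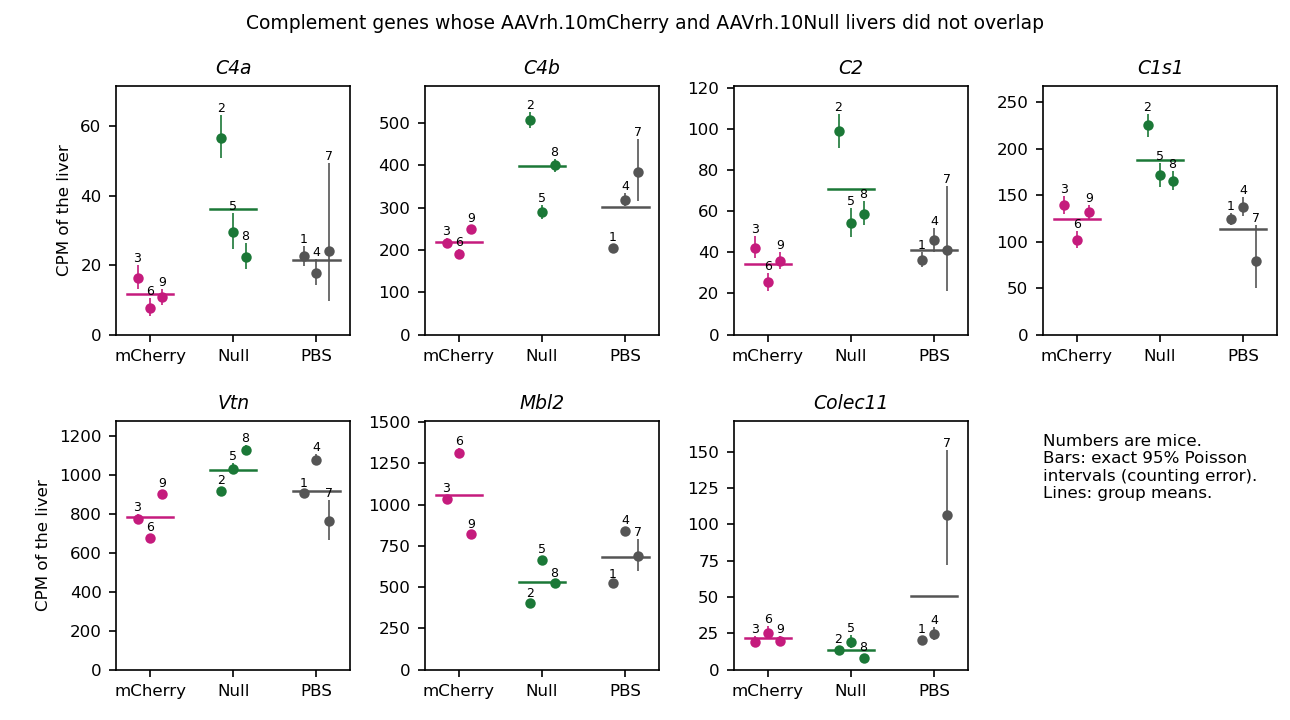
CPM in each liver of the 7 complement genes whose AAVrh.10mCherry and AAVrh.10Null livers did not overlap, with exact 95% Poisson intervals of counting error, mouse numbers and group means as lines; the genes were chosen for that pattern. C4a, C4b, C2, C1s1 and Vtn are lower and Mbl2 and Colec11 higher in AAVrh.10mCherry than in AAVrh.10Null livers, and mouse 7 (PBS) has the widest intervals and a Colec11 level of 106.

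The counts were then restricted to hepatocyte-positive barcodes. Of 30 tested complement genes, 0 passed edgeR's adjusted p in AAVrh.10mCherry over AAVrh.10Null (0.028% of 10732 genes), 0 in AAVrh.10mCherry over PBS (0%) and 0 in AAVrh.10Null over PBS (0.00932%); 0 passed in DESeq2 in each. An unadjusted p under 0.05 was found for 8 of the 30 (7.91% of all genes), 3 (7.46%) and 3 (14.4%) in the same order. C4a, C2 and C4b again led AAVrh.10mCherry over AAVrh.10Null, at -1.71 (adjusted p = 0.310), -1.11 (adjusted p = 0.503) and -0.94 (adjusted p = 0.503). The smallest p-values of AAVrh.10mCherry over PBS were those of C4a, Cd59a and C1ra, the last at -0.54 (SE 0.242, adjusted p = 0.639) with 79.2, 70.0 and 109 CPM in AAVrh.10mCherry mice, 117, 130.1 and 98.2 in AAVrh.10Null mice, and 116, 130.05 and 85.5 in PBS mice. Those of AAVrh.10Null over PBS were C2, C1s1 and C4a, at 0.71, 0.62 and 0.77, each with an adjusted p of 0.267 or more; without mouse 2 those of C2 and C4a were 0.44 and 0.34. Colec11 differed between AAVrh.10Null and PBS by -0.39 here, against -1.46 in whole livers, and Cd55 between AAVrh.10mCherry and AAVrh.10Null by 0.73, against 1.37. Colec11 in hepatocyte-positive barcodes ranged between 5.06 and 11.8 in the livers other than mouse 7. In mouse 7 it was at 7.43 of 269100 UMIs scaled to CPM. That value lay below the floor of 3 UMIs, so no level could be read there.

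Macrophage-positive barcodes allowed 19 complement genes and 710 genes in all to be tested, with 2 PBS livers. Of the 19, 0 passed edgeR's adjusted p in AAVrh.10mCherry over AAVrh.10Null (0.141% of all genes), in AAVrh.10mCherry over PBS (0.141%) or in AAVrh.10Null over PBS (0%), and 0 passed in DESeq2 in each. An unadjusted p under 0.05 was found for 2 of the 19 (6.34% of all genes), 2 (4.08%) and 0 (4.51%) in the same order. Fcna was at 1172, 313 and 964 CPM in mice 3, 6 and 9 (AAVrh.10mCherry), 1388, 1642 and 1743 in mice 2, 5 and 8 (AAVrh.10Null), and 1012 and 1988 in mice 1 and 4 (PBS). Every AAVrh.10mCherry value lay below every AAVrh.10Null value, with a log2 difference of -0.89 (SE 0.423, adjusted p = 0.754) and of -0.60 without mouse 6. Cfp was at 1087, 313 and 1048 in AAVrh.10mCherry mice, 1413, 1407 and 1469 in AAVrh.10Null mice, and 581 and 1249 in mice 1 and 4; the value of mouse 6 rested on 4 UMIs for each gene.

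Hepatocyte transcripts in the same macrophage-positive barcodes had the other small p-values. Mbl2 was at 715, 783 and 712 CPM in AAVrh.10mCherry mice, 268, 391 and 410.1 in AAVrh.10Null mice, and 387.5 and 279 in mice 1 and 4 (PBS). AAVrh.10mCherry differed from AAVrh.10Null by 1.05 (SE 0.436, adjusted p = 0.699) and from PBS by 1.14 (SE 0.450, adjusted p = 0.799). C9 was at 429, 78.3 and 251.4 in AAVrh.10mCherry mice, 487, 704 and 376 in AAVrh.10Null mice, and 861 and 706 in mice 1 and 4. For C9 the difference of AAVrh.10mCherry from PBS was -1.42 (SE 0.485, adjusted p = 0.649), or -1.17 without mouse 6, and for C8a -1.34 (SE 0.709, adjusted p = 0.993), and AAVrh.10Null differed from PBS by 0.68 for Cfp, -0.63 for C9 and -0.47 for C8b, each with an adjusted p of 0.934. The Cfp difference was 0.29 without mouse 1 and 1.25 without mouse 4, the only PBS livers in this class, and without mouse 1 that of C9 was -0.41. Of the 19 genes, 8 were lower without overlap in AAVrh.10mCherry over PBS (11.3% of all genes). The summed hepatocyte markers in the same barcodes also did not overlap, at 75808, 70121 and 78996 CPM in mice 3, 6 and 9 (AAVrh.10mCherry), against 97651 and 86564 in mice 1 and 4 (PBS), and their part in these lower levels was not tested.

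Of 25 other genes of the pathway that are not in the list, 14 were tested in whole livers and 0 passed in edgeR in any contrast. An unadjusted p under 0.05 was found for 3 in AAVrh.10mCherry over AAVrh.10Null (7.3% of all genes). The same was found for 2 in AAVrh.10mCherry over PBS (6.57%) and for 1 in AAVrh.10Null over PBS (12.9%). Cpn1, which encodes the carboxypeptidase that trims anaphylatoxins, was at 158 CPM over the 9 livers. Vsig4, the complement receptor of Kupffer cells, was at 881 ± 252 CPM in macrophage-positive barcodes and 3.40 in hepatocyte-positive barcodes (SD, n = 8 livers), 8.86 higher on the log2 scale relative to the hepatocyte markers. At the same scaling Itgam and Itgb2, the chains of complement receptor 3, were higher there by 8.79 and 7.77, and Cr1l, a convertase regulator, by 1.99. Macrophage-positive barcodes held 46.4% of the 28 Itgam UMIs and 16.7% of the 96 Itgb2 UMIs, while T/NK-positive barcodes held 45.8% of those of Itgb2. Hepatocyte-positive barcodes held 90.9% of the Cr1l UMIs. Its pooled level was 76.1 CPM in macrophage-positive, 89.3 in B-positive and 103 in cholangiocyte-positive barcodes. Colec10, the partner of collectin 11, was at 330.5 ± 119 in stellate-positive barcodes and 5.59 in hepatocyte-positive barcodes, higher in 8 of 8 livers, by 6.04 on the log2 scale. In endothelial-positive barcodes Cd93, a lectin-like receptor, was higher by 7.93 and Colec10 by 3.30.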

How the data were processed

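Single-cell RNA of 9 mouse livers was analysed, 1 library per mouse and 3 mice per treatment. The deposited tables hold whole-number counts of UMIs per gene and barcode as the authors made them, with no normalization. Drop-seq was used to capture the cells and a HiSeq 2500 to sequence them, per the labels' protocols; per the submitters' processing notes the genome was mm10 and Seurat was used; the deposited readme names bcl2fastq 2.19. None of the sources used here states the aligner, annotation or strand setting.

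Barcodes with at least 200 genes were kept, their counts summed per mouse over all barcodes or over marker-positive classes, and printed as CPM, UMIs scaled to a common total of 1000000. A class needed at least 2 distinct markers, at least 0.3% of UMIs in them and more marker UMIs than any other class; hepatocyte-positive barcodes needed at least 3 hepatocyte markers and fewer than 2 of any other class; a mouse entered a class with at least 10 barcodes. Doublets were not called, so a barcode of mixed origin can sit in a class. Treatments were compared with edgeR 4.0.16 in R 4.3.3 (TMM, filterByExpr, quasi-likelihood test, group as the only term), and classes with the mouse as a block, since both sums come from 1 liver; p-values were adjusted by Benjamini-Hochberg over all genes, with a threshold of 0.05. DESeq2 1.42.0, other scalings, filters and left-out mice were alternatives. The edgeR fit between treatments was tested on simulated all-barcode counts, with known changes in AAVrh.10mCherry over PBS. The class fits, the hepatocyte marker scaling and DESeq2 were not tested in this way. Tables were handled with pandas 2.3.3 and figures drawn with matplotlib 3.10.9. With 3 mice against 3, an exact permutation test of a single gene could not go below p = 0.1, so none was made.

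The genes, lists, markers and tests were chosen with earlier results of these data known. Values in every mouse are given for the 2 genes of each arm with the highest mean level and for the 3 genes with the smallest p in each contrast, none of which passed; C6, the C1q sum, Cfp, Cd55 and Colec11 in their source classes, and the genes shown for mouse 6, were chosen after their values were seen. Promoter windows came from RefSeq (GRCm38.p6); motif searches covered both strands.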

Additional observations from a re-analysis of the deposited data

Results flagged for a closer look

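The ratio of a class to the hepatocyte-positive barcodes of the same liver was checked for a mouse lying far from the others, in 40 sets of gene and class with at least 3 UMIs in both. In 6 of them the gap of 1 mouse to its nearest neighbour, as a share of the range, passed Dixon's 95% critical value, which chance passes in about 1 in 20 sets. No explanation was tested for any of them.

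In macrophage-positive barcodes, mouse 6 (AAVrh.10mCherry) was highest for C6, with a log2 ratio of 5.46 against a nearest value of 1.86, and for C8b, at 1.18 against -0.45. Its hepatocyte-positive barcodes held C6 at 5.32 CPM (95% Poisson interval 3.44 to 7.85) and its macrophage-positive barcodes at 235 on 3 UMIs (48.4 to 686), so the ratio was high through the low hepatocyte value. Mouse 4 (PBS) was lowest for Mbl2 in macrophage-positive barcodes, at -1.63 against -0.78, and for C8b in stellate-positive barcodes, at -1.91 against -0.92. In T/NK-positive barcodes, mouse 6 was lowest for Hc, at -1.91 against -1.28, and mouse 8 (AAVrh.10Null) was lowest for Clu, at -2.18 against -0.89.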

How the results depend on the processing

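The count of all genes called moved with several settings, while the complement genes called between treatments stayed at 0 under every setting that kept the filter on low counts, leave-one-out fits included. With no filter on low counts, all-barcode counts were 151 genes in AAVrh.10mCherry over AAVrh.10Null (4 of them complement genes, C4a, C2, Cfp and Cd55, with C4a at -1.71 and C2 at -1.12), 102 in AAVrh.10mCherry over PBS (1, C1qb) and 306 in AAVrh.10Null over PBS (1, Colec11, at -1.44), against 3, 0 and 1 with it; hepatocyte-positive counts were 155 (2, C4a at -1.70 and C2 at -1.09), 98 and 406, against 3, 0 and 1, and macrophage-positive counts 4 in the first and 4 in the last, against 1 and 0; the cause was not tested. DESeq2 called 0, 2 and 44 over all barcodes and 0, 2 and 47 in hepatocyte-positive barcodes. In AAVrh.10mCherry over AAVrh.10Null, total UMIs gave 1 gene in both sums, a mitochondrial limit of 20% gave 1, and without mice 6 and 7, chosen after seeing the data, 1 in both. At least 500 genes per barcode gave 47 in AAVrh.10Null over PBS. Without mice 2, 7 and 8, also chosen after seeing the data, both sums gave 0 in AAVrh.10mCherry over AAVrh.10Null and in AAVrh.10Null over PBS, and macrophage-positive barcodes 4 and 3. Leaving out 1 mouse gave 0 to 5, 0 to 1 and 0 to 8 genes over all barcodes, 0 to 4, 0 and 0 to 26 in hepatocyte-positive and 1 to 6, 1 to 3 and 0 to 3 in macrophage-positive barcodes.

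Between classes, the counts of genes called were 4080 for macrophage-, 2489 for stellate-, 3040 for endothelial- and 3868 for T/NK-positive barcodes. DESeq2 gave 2482, 1341 and 2231 for macrophage, stellate and T/NK, total UMIs gave 1288 for stellate, the hepatocyte marker scaling 1621 for stellate, and no filter 4607 for endothelial. Complement genes called, 27, 22, 24 and 24, came to 11, 8, 6 and 0 at the hepatocyte marker scaling, and for stellate to 13 with total UMIs and 11 with DESeq2. Leaving out 1 mouse gave 3162 to 3678, 1939 to 2584, 2478 to 4376 and 2354 to 3479 genes, and 26 to 27, 18 to 22, 23 to 26 and 21 to 24 complement genes. C6 in macrophage-positive barcodes passed with total UMIs (1.22), DESeq2 (0.77) and the hepatocyte markers (2.11), and Masp1 in stellate-positive barcodes did not pass with no filter (0.93) or without mouse 1 (0.87) or 4 (0.61). In macrophage-positive barcodes C2, at -0.80, reversed to 0.33 with total UMIs and 1.23 with the hepatocyte markers, and C4b, at -1.32, to 0.70 with the hepatocyte markers; C4b did not pass with total UMIs (-0.17) or DESeq2 (-0.69). None of the other genes followed across settings reversed, but medians of the complement genes changed sign. In AAVrh.10Null over PBS the median ran from -0.10 to 0.20 over all barcodes and from -0.14 to 0.11 in hepatocyte-positive barcodes when 1 mouse was left out, against 0.07 and 0.03, and was -0.07 over all barcodes with at least 500 genes and -0.11 without mice 6 and 7; in macrophage-positive barcodes it was 0.04 without mice 2, 7 and 8, against -0.16. At the hepatocyte marker scaling the source medians were 0.26 for macrophage-, 0.02 for endothelial- and 0.05 for stellate-positive barcodes, against -1.75, -1.30 and -0.92 with TMM.

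No paired analysis was possible because mouse numbers are not shared between the treatment groups. With no replicate block, the class fits called 2712 genes for macrophage, 945 for stellate and 1028 for endothelial, and 13 and 14 complement genes for stellate and endothelial. Depth limits mouse 7, C3ar1, C5ar1 and the classes of under 50 barcodes a liver.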
